A study of Mus musculus with 134 samples.

Results

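The high mobility group (HMG) genes described here are Hmgn1, Hmgn2, Hmgn3, Hmgn5, Hmga1, Hmga2, Hmgb1, Hmgb2 and Hmgb3, which are 9 of the 25209 genes counted in every bulk expression library of mouse embryonic stem cells (mESCs). They were selected on gene name and on having counts, as the Hmgn, Hmga and Hmgb genes listed in both the bulk libraries and the single-cell tables, around Hmgn5, which was chosen by its counts because it had the largest rise of the family when tagmentation was run at 37 °C instead of 16 °C. The levels at 37 °C and 16 °C therefore served to choose Hmgn5, and they are given below as a description with no test.

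HMG proteins are abundant, non-histone architectural proteins that bind chromatin without reading a defined base sequence. HMGN proteins bind the nucleosome itself through a conserved nucleosome-binding domain and compete with linker histone H1 for chromatin. Hmgn1 and Hmgn2 encode the widely expressed members, Hmgn3 encodes a member known from endocrine and neural tissues, and Hmgn5 encodes the member with a long acidic tail, which opens compact chromatin by counteracting H1. HMGA proteins bind the minor groove of AT-rich DNA through AT hooks. Hmga2 is best known for its expression in embryonic cells and Hmga1 for its expression in dividing cells. HMGB proteins bend DNA through paired HMG boxes. Hmgb1 encodes a DNA chaperone that is also released from cells as an alarm signal, Hmgb2 is expressed in dividing cells, and Hmgb3 is known from stem and progenitor cells.

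The study developed SET-seq, in which lysed cells are split into nuclei, whose chromatin is tagmented by Tn5 transposase at an antibody, and cytoplasmic RNA, which is reverse transcribed and tagmented as an mRNA/cDNA hybrid. All libraries were described as E14 mESCs (strain 129/Ola) grown in serum with LIF. The in vitro libraries used purified total RNA and varied the tagmentation temperature (16 °C or 37 °C), the time (5, 10, 15 or 30 min), the Tn5 amount (25, 50 or 100 ng/µl) or the RNA amount (300 ng, 3 ng or 30 pg). A conventional ligation-based RNA-seq library was the reference. Per the study's methods it was made from poly-A RNA with random primers, whereas the tagmented libraries used oligo dT. Read length and sequencing platform also differed, and the part of these differences in the HMG values was not tested. The SET-seq expression libraries came from 10000, 1000 or 100 wild-type cells with an H3K4me3 or H3K27me3 antibody, or from 10000, 1000, 100 or 10 cells with no antibody. The Aebp2 knockout (KO) libraries were H3K27me3 SET-seq libraries of 2 edited lines, KO1 and KO2, each a single clone edited at Aebp2, which encodes an accessory subunit of Polycomb repressive complex 2. Each of these 27 conditions had 2 libraries, 54 in all. Single-cell SET-seq (scSET-seq) was run on mESC pairs that had divided beside a bead carrying Wnt3a, with the H3K27me3 antibody in 10 experiments and the H3K4me3 antibody in 6.

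Total counts per bulk library ranged from 235040 to 21520982 (median 5900098), and the ribosomal precursor Rn45s took 1.54 to 84.6% of them. Rn45s was removed, and levels are given as CPM, the counts scaled to the same total of remaining counts in every library. All 8 mESC markers were counted in each set of bulk libraries, with summed levels of 3505 to 8536 CPM. Summed fibroblast and primitive endoderm markers (4 genes each) reached at most 28.8 and 37.1 CPM, and fibroblast markers were highest in the Tn5 libraries (17.3 to 28.8 CPM). Summed mesoderm and ectoderm markers (4 genes) had medians of 80.6 CPM in vitro, 23.3 CPM with ligation, 11.4 CPM in wild-type SET-seq and 17.0 CPM in KO. The part of these differences in the HMG values was not tested. Hprt, which is deleted in the ES-E14TG2a line, stood at 0 to 1.29 CPM in the in vitro libraries and 0 to 2.14 CPM in the KO libraries, but at 66.2 to 485 CPM in the wild-type SET-seq libraries and 184 and 181 CPM in the ligation libraries. The cells with and without Hprt counts therefore cannot be told apart from library type or from KO and wild type in any comparison that crosses these sets. In the single-cell tables Hprt had counts in 46.7% of H3K4me3 cells and 19.7% of H3K27me3 cells. Hprt counts go against the ES-E14TG2a line that the study names, and the origin of the cells that hold them was not tested.

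All 4 Hmgn genes share a single 8-codon stretch that codes for the same residues, within the nucleosome-binding domain. It is printed because it is what makes them a family at the sequence level, and capitals mark the 13 of 24 bases that are the same in all 4 genes (sense strand, 5′ to 3′, GENCODE vM1 coding sequence placed on mm9, within a coding exon and on the minus strand in each gene).
Hmgn1, chr16:96348918-96348941: cGccGcTCcGCgaGgcTGTCgGCc
Hmgn2, chr4:133522681-133522704: aGaaGaTCtGCgaGgtTGTCtGCt
Hmgn3, chr9:83008380-83008403: aGacGgTCgGCcaGgtTGTCcGCg
Hmgn5, chrX:106206196-106206219: aGaaGaTCaGCccGacTGTCtGCt

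Beyond this stretch Hmgn5 departs from the family in base composition. Its 1221 coding bases are 75.3% purine, against 58.7% in Hmga2, the lowest of the family, and 68.3% in Hmgn3, the next highest. The most purine-rich 30-base stretch of the coding sequence is shown for Hmgn5, for Hmgb3, which also codes for an acidic tail, and for Hmga2, the gene of the family with the lowest share, with the purines in capitals (sense strand, within a coding exon).
Hmgn5, chrX:106200568-106200597, minus strand: GGAAAAGAGGAtAGAAAGGAAGAAGGAGAG
Hmgb3, chrX:68812916-68812945, plus strand: GGAAGAAGAGGAAGAGGAGGAGGAAGAGGA
Hmga2, chr10:119910332-119910361, minus strand: AGAGGAAGAcccAAAGGcAGcAAAAAcAAG
These windows held 29, 30 and 24 purines. A run of purines was thus not particular to Hmgn5: windows with at least 27 purines made up 8.98% of its coding windows and 11.1% of those of Hmgb1. Over all exon bases, however, Hmgn5 was 65.9% purine, the highest value among 12741 expressed genes (median 50.6%), while the other HMG genes lay between 46.8% (Hmga1) and 55.5% (Hmgn3). The GC content of Hmgn5 was 40.3%, at the 4.88th percentile of the expressed genes, and Hmgb2 was as low at 40.1%.

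On mm9 the Hmgn genes lie at chr16:96343195-96349332 (Hmgn1), chr4:133520654-133523906 (Hmgn2), chr9:83003549-83040214 (Hmgn3) and chrX:106199876-106208719 (Hmgn5), all on the minus strand. The Hmga genes lie at chr17:27693519-27700617 (Hmga1, plus strand) and chr10:119798324-119913525 (Hmga2, minus strand). The Hmgb genes lie at chr5:149858278-149864633 (Hmgb1, minus strand), chr8:59990640-59994796 (Hmgb2, plus strand) and chrX:68809092-68813848 (Hmgb3, plus strand). HMG genes have many processed copies, which limits how exactly reads can be assigned to them. Exon bases that lie in another locus at 95% identity or more made up 92.6% of Hmgn1, 88.7% of Hmgn2, 86.0% of Hmgb3, 82.6% of Hmga2, 78.3% of Hmga1, 72.4% of Hmgb1 and 45.5% of Hmgb2. For Hmgn5 this share was 28.5%, at 1 locus, and for Hmgn3 it was 0. Exact copies of 100-base windows covered 69.4% of Hmgn2 and 56.7% of Hmga1 but 7.46% of Hmgn5, so the levels of Hmgn2, Hmga1, Hmgb1 and Hmgb3 are uncertain. Hmga1b is annotated at the same place as Hmga1, and its exons overlap 78.2% of the Hmga1 exon bases. It had 0 counts in all 54 libraries. How reads lying in both genes were counted was not examined, so the bulk Hmga1 values may miss such reads.

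Per kilobase of exon (RPKM, the level scale that allows genes to be compared), Hmgn1 was the highest member at 362 ± 202 (SD, n = 54 libraries). Hmgb2 followed at 34.0 ± 21.6 RPKM and Hmgb1 at 16.2 ± 15.3 RPKM. Hmga2 stood at 11.4 ± 8.54 RPKM and Hmgn5 at 5.81 ± 5.55 RPKM. Only the gap between Hmgn1 and Hmgb2 exceeded the spread of the genes beside it. Hmgb3 (3.61 ± 2.36 RPKM), Hmgn3 (1.87 ± 1.84 RPKM), Hmgn2 (0.800 ± 0.747 RPKM) and Hmga1 (0.485 ± 0.655 RPKM) were low, and the last pair was at 0 counts in 9 and 16 of the 54 libraries.

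The temperature series asked whether tagmentation at 37 °C and 16 °C gives like profiles from the same kind of RNA. In the 8 libraries at 16 °C, Hmgn5 had a lowest, median and highest level of 1.01, 4.18 and 7.09 CPM. In the 8 libraries at 37 °C, these values were 24.2, 29.0 and 50.4 CPM. Every 37 °C library was above every 16 °C library, and the fitted difference, which is also the one the gene was chosen for, was 2.97 ± 0.20 on the log2 scale (SE). The ratio of the Hmgn5 means at 37 °C and 16 °C was 9.73 at 5 min, 13.2 at 10 min, 6.29 at 15 min and 4.68 at 30 min, so Hmgn5 was high at 37 °C at all 4 times.

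Hmga2 and Hmgb2 were next, at smaller size. Hmga2 went from 26.7, 46.3 and 64.0 CPM (lowest, median, highest) at 16 °C to 64.8, 78.5 and 103 CPM at 37 °C, a log2 difference of 0.91 ± 0.10. Hmgb2 went from 26.8, 33.6 and 40.8 CPM to 48.9, 59.4 and 72.9 CPM, a log2 difference of 0.84 ± 0.09. For neither gene did the temperatures overlap. Hmga1 had a larger fitted difference (2.21 ± 0.44) but rested on 24 counts in all at 16 °C and 43 at 37 °C, with levels of 0 to 1.18 CPM and 0.958 to 3.29 CPM that overlapped.

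The remaining genes differed little or overlapped. Hmgn1 lay at 232, 271 and 340 CPM at 16 °C and at 279, 307 and 326 CPM at 37 °C (log2 difference 0.19 ± 0.06). Hmgb1 lay at 8.41, 14.7 and 29.3 CPM and at 10.98, 17.3 and 31.8 CPM (0.31 ± 0.16). Hmgb3 lay at 4.35, 6.47 and 8.87 CPM and at 3.29, 8.48 and 9.63 CPM (0.50 ± 0.18). All 3 ranges overlapped, and at 5 min alone Hmgn1 and Hmgb3 had the opposite sign (−0.06 and −0.38). Hmgn2 (medians 0.735 and 1.25 CPM) and Hmgn3 (medians 0.547 and 1.03 CPM) were too low to enter the fit. The 7 HMG genes that entered it had a median log2 difference of 0.84 beside −0.004 over all genes tested. In that fit 63.4% of all genes tested were past edgeR's adjusted p of 0.05 in either direction, and 6 of the 7 HMG genes were, all on the higher side. Since this contrast chose Hmgn5, that count is a description and no test of the family.

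Other features of the libraries moved with temperature. Rn45s took 11.8 to 25.1% of counts at 16 °C and 33.0 to 40.7% at 37 °C. The summed level of 4 nuclear RNAs (Malat1, Neat1, Meg3 and Kcnq1ot1) was 196 to 284 CPM at 16 °C (median 242) and 305 to 546 CPM at 37 °C (median 376). The summed mESC markers overlapped, at 4292 to 4828 CPM and 4204 to 4656 CPM. The part of Rn45s and nuclear RNA in the HMG values was not tested.

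**Figure D1:**
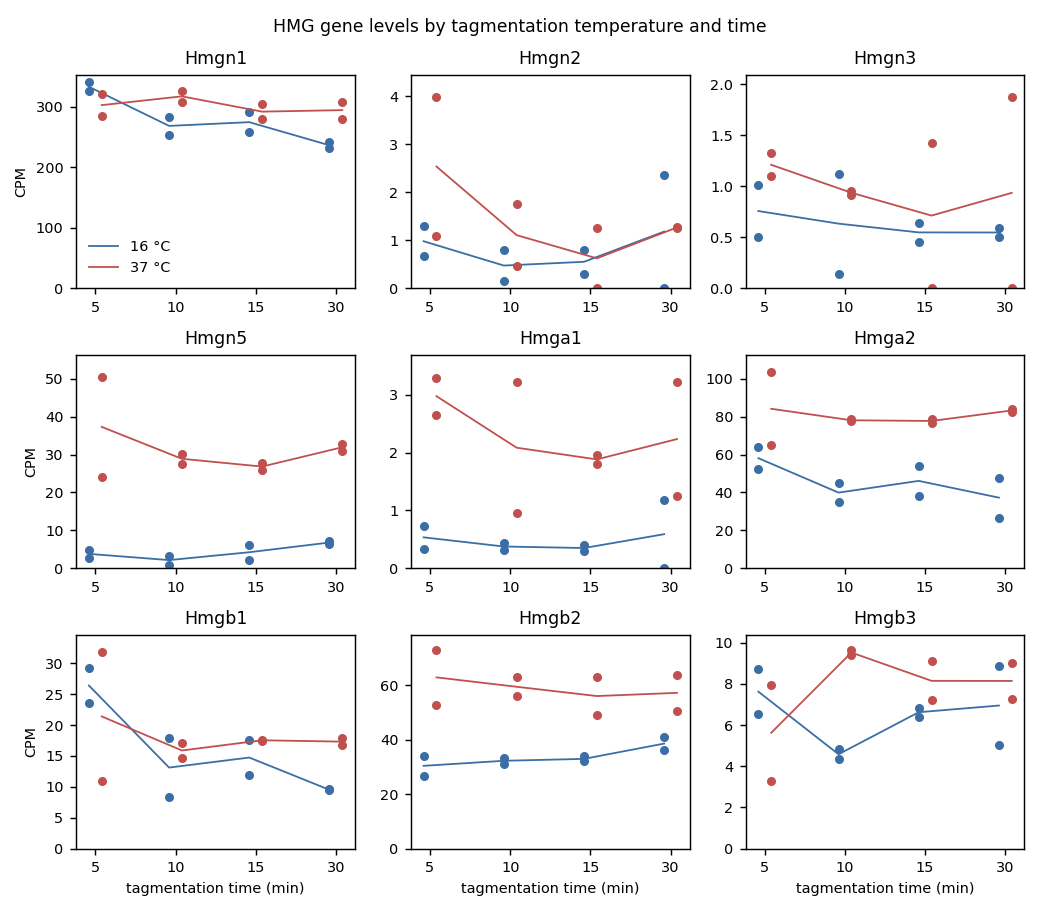
CPM (vertical axes, linear, each from 0) of each HMG gene against tagmentation time in minutes (4 equally spaced times), with 16 °C in blue and 37 °C in red, a point per library (2 per condition) and lines through the means. Hmgn5 lies at 24.2 to 50.4 CPM in all 37 °C libraries and at 1.01 to 7.09 CPM in all 16 °C libraries, whereas the Hmgn1 and Hmgb1 libraries of both temperatures overlap.

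The purine content of Hmgn5 set it apart from the family, and so the temperature difference of all genes was described against it, a property chosen after the Hmgn5 sequence had been seen. Across the 11788 genes tested, the log2 difference between 37 °C and 16 °C had a Pearson correlation of 0.299 with the purine share of the exons and of −0.529 with their GC content (genes are not independent replicates, and both shares come from the same exon sequences, with a correlation of −0.206 between them). The median log2 difference was −0.26 in the 294 genes under 46% purine, and 0.88 in the 38 genes at 60% or more. Of those 38 genes, 34 were higher at 37 °C, Hmgn5 among them. Only Mir703, a gene picked out after its value was seen, had a larger rise than Hmgn5. With an offset on GC content the correlation with purine share was 0.231, that with GC content 0.002, and the Hmgn5 difference was 2.40.

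**Figure D2:**
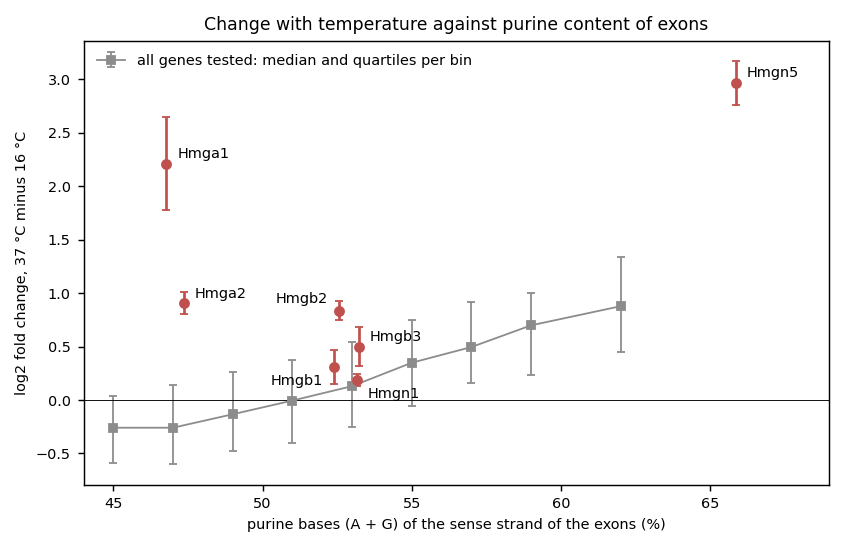
Log2 difference between 37 °C and 16 °C (vertical axis) against the purine share of the exon bases in percent (horizontal axis), with the median and quartiles of all genes tested in each bin of purine share in grey and the HMG genes in red with their SE. Hmgn5 stands at the right end with 65.9% purine and a log2 difference of 2.97, and the other HMG genes lie between 46.8 and 55.5% purine.

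Tagmentation time was compared in the same 16 libraries, and from here on a gene is called when edgeR's quasi-likelihood test gives a Benjamini-Hochberg adjusted p below 0.05 over all genes tested. The study calls the 2 libraries of a temperature and time biologically independent, and describes the libraries of each KO line as independent experiments. For the other bulk pairs this is not stated in the sources used here, so p-values there measure only the spread between libraries, which may be technical. At 30 min against 5 min, 7.49% of all genes were called, and of the 7 HMG genes tested only Hmgb1 was called. Its levels at 16 °C were 29.3 and 23.5 CPM at 5 min and 9.57 and 9.46 CPM at 30 min. At 37 °C they were 10.98 and 31.8 CPM at 5 min and 16.7 and 17.9 CPM at 30 min. The fall was clear at 16 °C, whereas the 37 °C libraries of 30 min lay between the 5 min libraries. Over both temperatures Hmgb1 fell by 0.86 ± 0.25 on the log2 scale (edgeR adjusted p = 0.0316), and the difference between the temperatures was not called (1.19, edgeR adjusted p = 0.265). The call was lost on leaving out replicate 1 or 2 of 16 °C 5 min, replicate 1 or 2 of 16 °C 30 min or replicate 2 of 37 °C 5 min (highest edgeR adjusted p = 0.161). Hmgn1 was called in the 16 °C libraries alone (−0.41, edgeR adjusted p = 0.00624). Hmgn5 was not called for time (0.11 ± 0.31, edgeR adjusted p = 0.887).

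The amount of Tn5 was varied from 25 to 100 ng/µl. Hmgn5 stood at 13.1 and 7.88 CPM with 25 ng/µl, at 13.5 and 8.59 CPM with 50 ng/µl and at 17.5 and 5.45 CPM with 100 ng/µl. Replicate 1 was the higher library each time, and the amounts overlapped fully (100 against 25 ng/µl, 0.12 ± 0.56, log2). These levels were below the 24.2 CPM of the lowest 37 °C library and, with 1 exception, above the 7.09 CPM of the highest 16 °C library, although 37 °C for 5 min was the setting the study adopted for later libraries. In edgeR 0 of the 8 HMG genes tested and 0% of all genes tested were called, with 84 genes at an unadjusted p below 0.05, and DESeq2 also called 0 genes. These fits did not pair the libraries by replicate number. With that pairing edgeR again called 0 genes, but 1587 genes had an unadjusted p below 0.05. With an SE of 0.56 for Hmgn5, this does not show that the amounts gave like levels.

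The RNA dilution series divided the family, in libraries that also differed in other ways. Rn45s made up 17.4 to 18.2% of counts at 300 ng, reached 78.5 to 84.6% at 3 ng, and lay between, at 64.7 to 68.1%, in the 30 pg libraries. The summed nuclear RNAs stood at 194 to 209, 813 to 832 and 801 to 1193 CPM, and the summed mESC markers at 4286 to 4663, 7078 to 7720 and 8270 to 8536 CPM, in the same order. Their part in the HMG values was not tested. With 30 pg of RNA, Hmgb2 was at 171 and 210 CPM against 52.8 and 41.6 CPM with 300 ng, a log2 difference of 1.74 ± 0.31 (edgeR adjusted p = 0.0193). Hmgb1 was at 73.6 and 30.9 CPM against 6.04 and 5.26 CPM, a log2 difference of 3.01 ± 0.75 (edgeR adjusted p = 0.0445). In both genes each 30 pg library was above each 300 ng library. Hmgn5 had no count in either 30 pg library and was at 17.3 and 8.46 CPM with 300 ng. The limit of 3 counts over the 3067400 counts of both 30 pg libraries is 0.978 CPM, so Hmgn5 was at least 13.2-fold lower. That limit rests on replicate 1, with 2743951 of these counts. In replicate 2, with 323449 counts, 3 counts are 9.28 CPM, which alone would make Hmgn5 at least 1.39-fold lower and lies above the Hmgb3 level with 300 ng. Hmgb3 was likewise at 0 and 0, against 4.87 and 3.48 CPM, at least 4.27-fold lower by the limit over both libraries. Such limits cover counting error only. Hmgn2, Hmgn3 and Hmga1 were also without counts at 30 pg, but their 300 ng levels were under that limit.

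Hmgn1 (352 and 322 CPM at 30 pg, 224 and 156 CPM at 300 ng) and Hmga2 (72.9 and 139 CPM against 59.99 and 42.8 CPM) were not called. The median log2 difference of all genes was −0.44 at 30 pg, and 22.7% of them were called. The 4 HMG calls were lost on leaving out any library of 300 ng or 3 ng. With 3 ng of RNA edgeR called 0 HMG genes and 0% of all genes, with 1558 genes at an unadjusted p below 0.05, while DESeq2 called 478 genes. Hmgb1 was called by DESeq2 alone (2.14, DESeq2 adjusted p = 0.0355), from 29.6 and 24.5 CPM with 3 ng. On leaving out replicate 1 or replicate 2 of 30 pg, edgeR called 5 HMG genes at 3 ng, so the count of 0 with all 6 libraries does not show that the amounts were alike. Hmgn5 was as high with 3 ng (17.4 and 19.6 CPM) as in the higher 300 ng library, and Hmgb2 stood at 99.01 and 75.8 CPM, above both 300 ng libraries.

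Library type was compared in 16 libraries that the choice of Hmgn5 did not use. Against ligation-based RNA-seq, 4 of the 8 HMG genes tested were called in the in vitro libraries, where 68.8% of all genes were called. Hmgb3 was at 3.43, 4.34 and 5.99 CPM (lowest, median, highest of 8 in vitro libraries) and at 1.71 and 1.58 CPM in the ligation libraries, a log2 difference of 1.72 ± 0.32 (edgeR adjusted p = 0.000245). Hmga2 was at 36.0, 51.4 and 67.4 CPM against 29.1 and 31.9 CPM (1.03 ± 0.28, edgeR adjusted p = 0.00406). Neither gene overlapped between the library types. Hmgn1 was at 156, 225 and 311 CPM against 170 and 160 CPM, which overlapped (0.77 ± 0.27, edgeR adjusted p = 0.0209). Hmga1 went the other way without overlap, at 0, 0.510 and 0.974 CPM against 4.27 and 4.75 CPM (−2.83 ± 0.39, edgeR adjusted p = 1.72e-05).

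Hmgn5 was at 5.45, 10.8 and 17.5 CPM in vitro and at 21.9 and 17.6 CPM in the ligation libraries. The ligation libraries were the higher ones by a small margin, and the difference was not called (−0.57 ± 0.35, edgeR adjusted p = 0.162). Its sign depended on the setting: it was 1.25 with an offset on GC content (edgeR adjusted p = 0.00865) but −0.65 with no filter on low counts (edgeR adjusted p = 0.0152). With the 37 °C 5 min libraries as the in vitro group it was 1.18, a description only, since those libraries served to choose the gene. Hmgb1 (0.03), Hmgb2 (0.31) and Hmgn3 (−0.68) were not called. The 8 HMG genes had a median log2 difference of 0.17, beside −0.03 over all genes. The Hmgn1 and Hmga2 calls were lost without ligation replicate 1, whereas the Hmgb3 and Hmga1 calls held whichever library was left out. Over these fits the difference ran from 0.60 to 0.86 for Hmgn1 and from 0.87 to 1.11 for Hmga2.

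SET-seq of 10000 cells takes cytoplasmic RNA through tagmentation of the mRNA/cDNA hybrid, and its 6 libraries split the family further. The labels do not give the tagmentation temperature of the in vitro libraries used here, and its part in the differences was not tested. Hmgb1 was at 4.22, 92.4 and 114 CPM in SET-seq and at 4.12, 6.38 and 10.8 CPM in vitro, a rise of 2.63 ± 0.30 on the log2 scale (edgeR adjusted p = 3.22e-06). Only the no-antibody replicate at 4.22 CPM fell within the in vitro range. The other no-antibody library had 24.5 CPM, and the 4 antibody libraries had 90.3 to 114 CPM. Hmgn1 was at 413, 745 and 791 CPM in SET-seq and at 156, 225 and 311 CPM in vitro, a rise of 1.29 ± 0.18 (edgeR adjusted p = 1.85e-05) without overlap.

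Hmga2 and Hmgn5 were lower in SET-seq. Hmga2 was at 8.19, 12.2 and 15.4 CPM against 36.0, 51.4 and 67.4 CPM in vitro, so that it fell by 2.39 ± 0.21 (edgeR adjusted p = 3.89e-07). Hmgn5 was at 1.08, 3.67 and 6.55 CPM against 5.45, 10.8 and 17.5 CPM in vitro, so that it fell by 1.99 ± 0.36 (edgeR adjusted p = 0.000244). The Hmga2 ranges were far apart, and the Hmgn5 ranges overlapped through a single SET-seq library. These 4 of 8 genes were the ones called, where 64.7% of all genes were called, and all 4 stayed called on leaving out any 1 library. With the no-antibody libraries set against the 300 ng libraries alone, Hmgb1 was not called (1.17, edgeR adjusted p = 0.116), while Hmgn1, Hmga2 and Hmgn5 were. Nuclear RNA was lower in SET-seq, at 130 to 204 CPM against 194 to 380 CPM in vitro and 569 to 593 CPM with ligation, and its part in these values was not tested. Hmgb2 (51.9, 68.5 and 82.4 CPM in SET-seq) was not called (0.25, edgeR adjusted p = 0.111), and its call depended on the setting: it was called higher with DESeq2's size factors (0.31, edgeR adjusted p = 0.0481) and lower with an offset on GC content (−0.68, edgeR adjusted p = 0.00188).

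The ligation libraries and the no-antibody SET-seq libraries of 10000 cells both held Hprt counts, and this comparison was added after the data had been seen. Of the 9 HMG genes, 7 were called, where 69.6% of all genes were called. Hmgn5 was at 1.58 and 2.54 CPM in SET-seq and at 21.9 and 17.6 CPM with ligation, so that it fell by 3.01 ± 0.28 (edgeR adjusted p = 0.000398). Hmga2 (−1.36, edgeR adjusted p = 0.000838), Hmga1 (−2.67, edgeR adjusted p = 0.00613) and Hmgn3 (−2.45, edgeR adjusted p = 0.00315) were also lower, whereas Hmgn1 (1.88, edgeR adjusted p = 0.000354), Hmgb3 (1.84, edgeR adjusted p = 0.00333) and Hmgb2 (0.52, edgeR adjusted p = 0.00942) were higher. Hmgb1 (0.99, edgeR adjusted p = 0.216) and Hmgn2 (−0.47, edgeR adjusted p = 0.432) were not called. Hprt itself was at 66.2 and 125 CPM in these SET-seq libraries and at 184 and 181 CPM in the ligation libraries, and its part in these differences was not tested. In bulk libraries, fewer cells that hold a transcript and less of it per cell cannot be told apart.

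**Figure D3:**
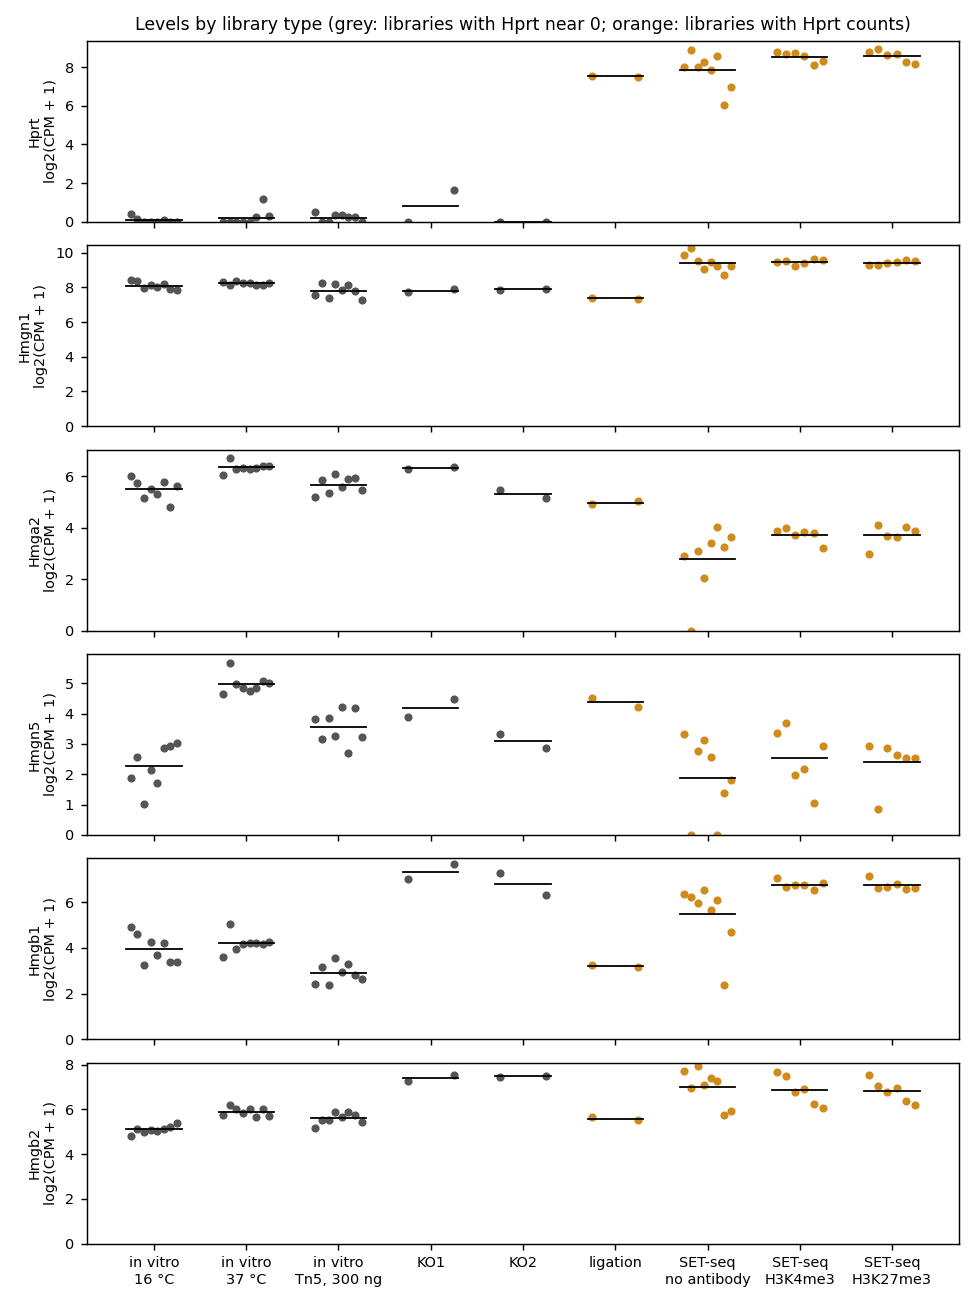
Levels as log2(CPM + 1) (vertical axes) of Hprt and of 5 HMG genes by library type (horizontal axis), with a point per library and a bar at the mean, grey for libraries with Hprt near 0 and orange for those with Hprt counts. The SET-seq columns hold all cell numbers. Hmgn5 and Hmga2 are low and Hmgn1 is high in SET-seq, where the 10000-cell libraries had 1.08 to 6.55, 8.19 to 15.4 and 413 to 791 CPM, and Hmgn5 is highest at 37 °C.

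The Aebp2 libraries compared the KO clones with wild-type H3K27me3 SET-seq of 10000 cells. KO1, KO2 and wild type each had their own term in the fit. The p-values therefore measure the spread between the 2 libraries of a line, and the spread between clones does not enter them. Aebp2 itself was lower in the KO libraries (−1.39 ± 0.22, edgeR adjusted p = 7.67e-06) but still counted, at 15.7 and 15.0 CPM in KO1 and 30.2 to 49.7 CPM in KO2. All 6 HMG genes tested were called, 5 higher and 1 lower, where 57.3% of all genes were called, and their median log2 difference was 1.26 beside −0.03 over all genes. Rn45s took 48.8 to 56.7% of counts in the KO libraries and 21.95 and 23.4% in the wild-type libraries, and the summed mESC markers were at 3505 to 4059 CPM and 5443 to 5543 CPM. The part of these differences in the HMG values was not tested.

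Hmga2 was at 77.5 and 81.3 CPM in KO1, 42.7 and 34.7 CPM in KO2 and 15.4 and 13.5 CPM in wild type (2.11 ± 0.24, edgeR adjusted p = 5.55e-08). Hmgb2 was at 151 and 182 CPM in KO1, 174 and 181 CPM in KO2 and 82.4 and 71.5 CPM in wild type (1.32 ± 0.15, edgeR adjusted p = 3.75e-08). Hmgn1 was at 210 and 238 CPM in KO1, 233 and 244 CPM in KO2 and 756 and 733 CPM in wild type (−1.54 ± 0.10, edgeR adjusted p = 7.32e-12). For these 3 genes every KO library lay on the same side of both wild-type libraries, and the call held on leaving out any 1 library.

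The Hmgn5, Hmgb1 and Hmgb3 calls rested on single libraries. Hmgn5 was at 13.7 and 21.4 CPM in KO1, 8.95 and 6.23 CPM in KO2 and 4.85 and 4.80 CPM in wild type (1.38 ± 0.47, edgeR adjusted p = 0.0155), but it was not called by DESeq2 (adjusted p = 0.121) or in KO2 alone (0.83, edgeR adjusted p = 0.255). Its call was also lost without wild-type replicate 1 (edgeR adjusted p = 0.125), wild-type replicate 2 (0.186), KO1 replicate 2 (0.0964) or KO2 replicate 1 (0.0527). Hmgb1 was at 127 and 200 CPM in KO1, 153 and 78.3 CPM in KO2 and 94.5 and 97.9 CPM in wild type (0.64 ± 0.19, edgeR adjusted p = 0.00651). KO2 replicate 2 was below both wild-type libraries, and the call was lost without KO1 replicate 2 (edgeR adjusted p = 0.0601). Hmgb3 was at 20.6 and 16.04 CPM in KO1, 7.95 and 7.12 CPM in KO2 and 8.89 and 3.90 CPM in wild type (1.20 ± 0.48, edgeR adjusted p = 0.0339). Its KO2 libraries lay between the wild-type libraries, and its call was lost in DESeq2 (adjusted p = 0.233) and on leaving out either replicate of wild type (edgeR adjusted p = 0.0614 and 0.567) or of KO1 (0.131 and 0.0641).

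The wild-type SET-seq libraries held Hprt counts and the KO libraries did not (log2 difference −9.84). Set against the in vitro libraries instead, which also lacked Hprt but differed in library type, 3 of 7 HMG genes tested were called, Hmgb1 (4.10), Hmgb2 (1.64) and Hmgb3 (1.19), where 61% of all genes were called. Hmgn5 (−0.13, edgeR adjusted p = 0.780), Hmga2 (−0.09, edgeR adjusted p = 0.768) and Hmgn1 (−0.20, edgeR adjusted p = 0.460) then changed sign or lost the call. Hmgb2, alone among the HMG genes, was called with the same sign against both references and without any 1 library of the first. The labels give no cell number for the KO libraries, whose Hmgb2 means were 166 CPM in KO1 and 177 CPM in KO2. Wild-type H3K27me3 SET-seq had Hmgb2 means of 159 CPM with 100 cells, 116 CPM with 1000 and 76.9 CPM with 10000. The part of cell number in the KO difference was not tested. KO1 and KO2 were compared in the same fit as wild type, where 11.8% of all genes were called. Hmga2 was higher in KO1 (0.94 ± 0.25, edgeR adjusted p = 0.0139), a call lost in DESeq2 (adjusted p = 0.116) and without KO1 replicate 2 or KO2 replicate 2 (highest edgeR adjusted p = 0.0866). Hmgn5 (1.10, edgeR adjusted p = 0.192) and Hmgb3 (1.18, edgeR adjusted p = 0.167) were not called between the clones, and Aebp2 was lower in KO1 (−1.46, edgeR adjusted p = 0.00560).

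Cell number was compared in the SET-seq libraries with antibody. Hmgb2 was at 202, 181, 186 and 132 CPM in the 100-cell libraries and at 75.2, 65.5, 82.4 and 71.5 CPM in the 10000-cell libraries. The groups did not overlap, and Hmgb2 was 1.41 ± 0.13 higher on the log2 scale (edgeR adjusted p = 4.10e-07). Without antibody it was at 209 and 122 CPM with 10 cells, 242 and 134 CPM with 100 cells, 168 and 153 CPM with 1000 cells, and 51.9 and 60.3 CPM with 10000 cells. Mean Hmgb2 levels were thus lower with 10000 cells than with fewer cells, with or without antibody, and higher with 30 pg than with 300 ng of RNA. The part of input amount in these levels was not tested. Hmgb1 was at 131, 100, 138 and 98.6 CPM with 100 cells and at 90.3, 114, 94.5 and 97.9 CPM with 10000 cells, which overlapped. Its difference of 0.41 ± 0.13 (edgeR adjusted p = 0.0272) was not called with an offset on GC content (0.28, edgeR adjusted p = 0.143). It was also lost in 5 of the 12 fits that left out 1 library, those without replicate 1 of H3K4me3 100 cells, H3K4me3 10000 cells, H3K27me3 100 cells or H3K27me3 10000 cells, or replicate 2 of the last (highest edgeR adjusted p = 0.0971). These were the 2 called of 7 HMG genes tested, where 21% of all genes were called.

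Hmgn5 was at 9.36, 12.0, 6.60 and 0.827 CPM with 100 cells and at 1.08, 6.55, 4.85 and 4.80 CPM with 10000 cells. These libraries overlapped, and the difference was not called (0.87 ± 0.73, edgeR adjusted p = 0.449). Between the H3K27me3 and H3K4me3 antibodies, edgeR called 0 HMG genes and 0% of all genes, with 362 genes at an unadjusted p below 0.05, and DESeq2 called 0 genes. The log2 differences of the 7 HMG genes tested ran from −0.34 to 0.15.

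**Figure D4:**
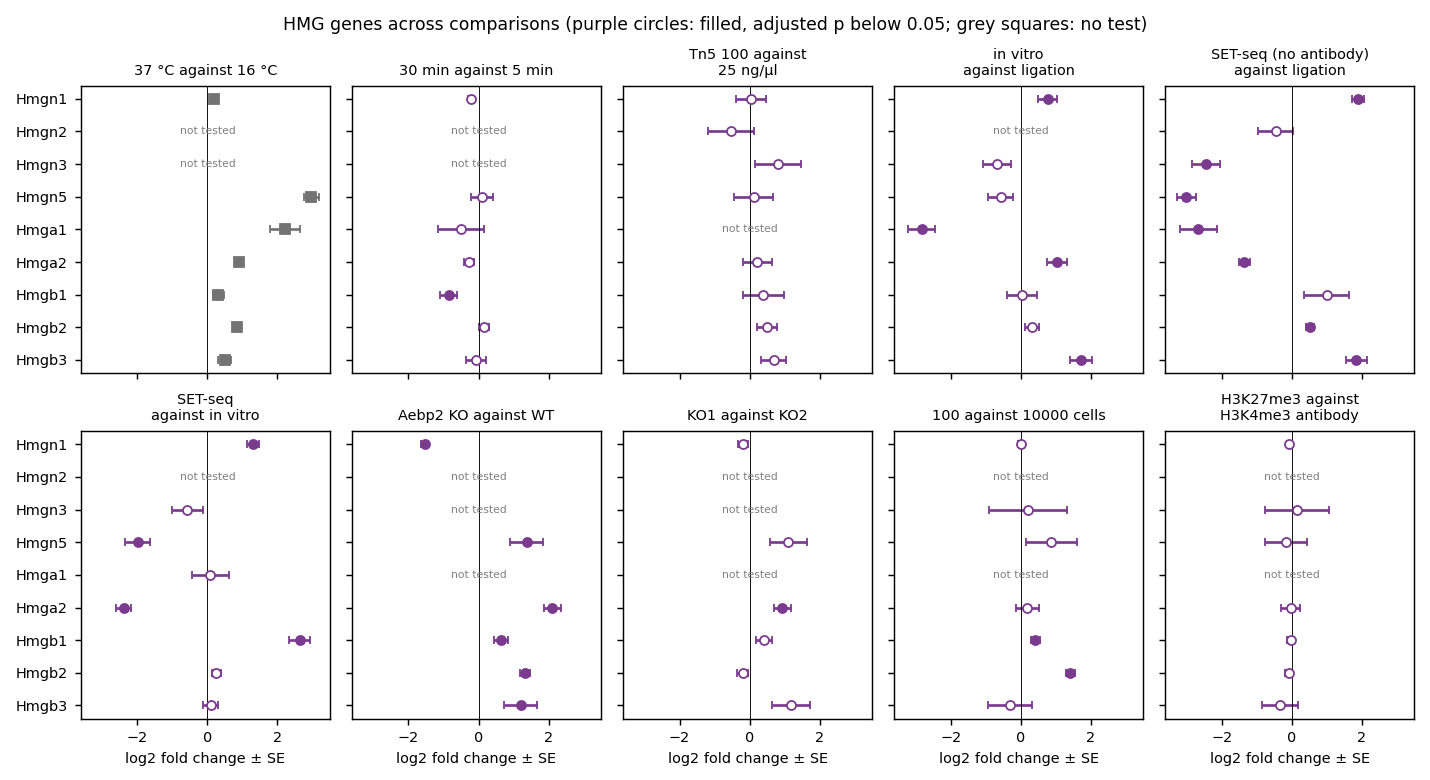
Log2 fold change with its SE (horizontal axes) of each HMG gene (vertical axes) in 10 bulk comparisons, with filled purple circles for adjusted p below 0.05 in edgeR, open circles otherwise and grey squares (37 °C against 16 °C) where no test is given. Hmgn5 is at 2.97 for temperature and −1.99 for SET-seq against in vitro, and Hmgn1 is the only gene below 0 in the Aebp2 KO panel, at −1.54.

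Over the 27 bulk conditions the Hmgn5 means ran from 0 CPM (30 pg) and 2.06 CPM (no-antibody SET-seq of 10000 cells) to 37.3 CPM (37 °C 5 min). The 4 conditions at 37 °C were the highest, at 26.8 to 37.3 CPM. Ligation (19.8 CPM), 3 ng of RNA (18.5 CPM) and KO1 (17.6 CPM) came next, and the libraries of these 3 conditions overlapped. The highest ligation library (21.9 CPM) was below the lowest 37 °C library (24.2 CPM). The 16 °C conditions (2.19 to 6.82 CPM) stood among those of wild-type SET-seq (2.06 to 10.7 CPM). The 5 genes whose mean log2(CPM + 1) followed that of Hmgn5 most closely, of 10120 genes with a mean of at least 5 CPM, were Pcgf6 (Pearson r = 0.906), Galnt1 (0.885), Faf1 (0.862), Ofd1 (0.847) and Ccdc34 (0.844), and 3 of them were also among the top 5 by Spearman's rho. Their exons were 48.7 to 54.7% purine, so none matched Hmgn5 in that respect. Conditions of a series share RNA, and those of the temperature series served to choose Hmgn5, so these values are descriptions.

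Within the family the closest pair by the same measure was Hmgb1 and Hmgb2 (r = 0.818), followed by Hmgn5 and Hmga1 (0.735) and Hmgn1 and Hmgb1 (0.692). Hmgn1 and Hmga2 ran opposite to each other (−0.790). The 27 conditions include those of the temperature series, which served to choose Hmgn5, so these correlations are descriptions. The minimum level set for the genes compared with Hmgn5 was not applied to these pairs. The highest Hmga1 mean was 4.51 CPM (ligation), so its pairing with Hmgn5 rests on low levels. Hmgn1 and Hmga2 were thus not alike across the 27 conditions, and likeness of the family as a whole was not tested.

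Other genes of the same chromatin functions are given by counts. Among other HMG-box genes, 9 of 15 tested were higher and 3 lower at 37 °C, where 63.4% of all genes were called (median log2 difference 0.30 beside −0.004 over all genes), with Pbrm1, a chromatin remodeller subunit, at 0.70. At 30 min against 5 min edgeR called 0 of these 15, where it called 7.49% of all genes. They had 2 higher and 7 lower in vitro against ligation (68.8% of all genes called), and 2 higher and 8 lower in SET-seq against in vitro (64.7%), with Tox3 at 2.99 and −3.59 in these comparisons. Against wild type, 12 of 14 were higher in the Aebp2 KO libraries and 0 lower (median 0.72, 57.3% of all genes called), with Smarce1, another remodeller subunit, at 1.16.

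Among linker histones and histone chaperones, 19 of 25 tested were higher and 4 lower at 37 °C (median 0.93, 63.4% of all genes called). Ptma, which encodes the very acidic prothymosin alpha, was at 2.00, the linker histone gene H1f2 at 1.99 and Nucks1 at 1.85. In the Aebp2 KO libraries 17 of 24 were higher and 2 lower (median 0.77, 57.3% of all genes called), with the histone chaperone gene Nasp at 2.175. With 100 against 10000 cells 12 of 25 were higher and 1 lower (median 0.45, 21% of all genes called). In vitro against ligation the counts were 5 higher and 11 lower (68.8% of all genes called), and in SET-seq against in vitro 9 higher and 12 lower (64.7%).

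In the single-cell tables, 545 of 752 cells had more than 1000 and fewer than 5000 genes, 335 with the H3K27me3 antibody and 210 with the H3K4me3 antibody. Their counts ran from 5364 to 2020096 per cell (median 123722). The 96 barcodes were reused, 80 of them in more than 1 experiment, so cells were identified within their experiment. In experiments 8 to 10 of H3K27me3 (165 cells) the summed mESC markers were at 0.704 to 3.13 CPM, against 341 to 9938 CPM in the other experiments, and the median cell had a count for 0 of the 7 markers listed in the single-cell tables. Those experiments go against their label, so cell counts are given with them apart and the comparison of positions with and without them.

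Hmgn5 was counted in 2 of 335 H3K27me3 cells and 4 of 210 H3K4me3 cells, so its variation between cells was not measurable at this depth. In the H3K27me3 experiments other than 8 to 10, Hmgn1 had counts in 123 of 170 cells (median summed level over experiments 156 CPM) and Hmgb2 in 101 (193 CPM). In experiments 8 to 10 these were 10 and 1 of 165 cells. Hmga1 was in 65 of 170 cells against 4 of 165, Hmgb1 in 58 against 2, Hmgn2 in 47 against 0 and Hmga2 in 26 against 3. Hmgn3 stood out, with counts in 81 of 170 and in 82 of 165 cells, although its median summed level was 33.0 CPM in the former and 3.72 CPM in the latter. With the H3K4me3 antibody Hmgn1 was in 71.4% of cells, Hmgb2 in 67.1%, Hmgb1 in 43.8%, Hmga1 in 32.4%, Hmgn3 in 18.1% and Hmgb3 in 0.952%. Hmga1, at a median of 0.454 CPM in the bulk libraries, had a median summed level of 54.4 CPM there. The single-cell tables were counted over exons and introns by another program and hold no Hmga1b, so the bulk and single-cell levels are not on the same footing.

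**Figure D5:**
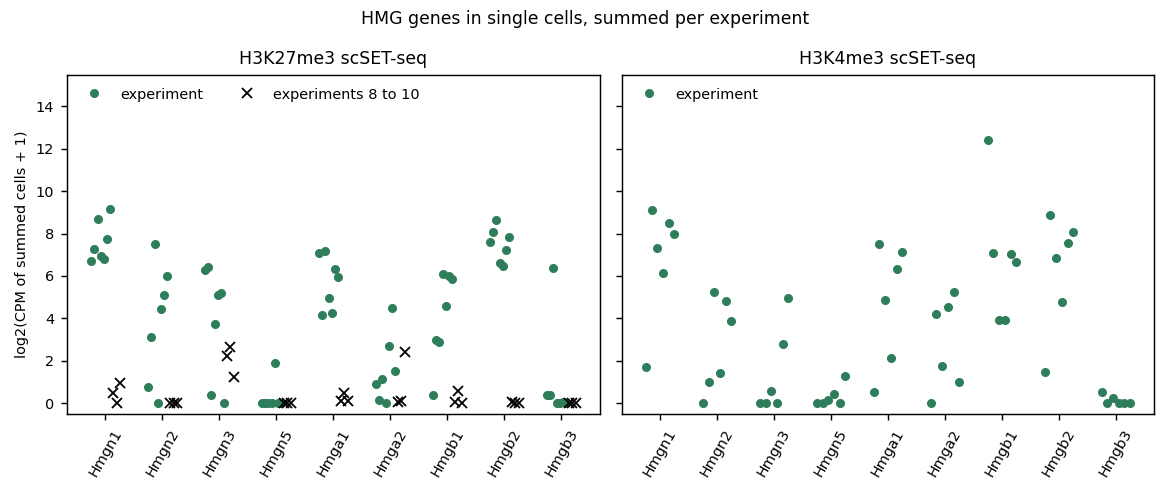
Log2 of (CPM + 1) of the summed cells (vertical axis) for each HMG gene (horizontal axis), with a point per experiment and crosses for H3K27me3 experiments 8 to 10. Hmgn1 and Hmgb2 are high in the other H3K27me3 experiments (medians of 156 and 193 CPM) and near 0 in experiments 8 to 10, Hmgn3 keeps a median of 3.72 CPM there, and Hmgn5 is at or near 0 throughout.

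Cells proximal and distal to the Wnt3a bead were compared after summing counts per experiment and position in 14 experiments, H3K27me3 experiments 8 to 10 included. In edgeR, 0 of the 6 HMG genes tested and 0% of all genes were called, with 181 of 4885 genes at an unadjusted p below 0.05, and limma also called 0. Hmga1 had the largest fitted difference (1.51 ± 0.96, edgeR adjusted p = 0.998), at a median of 43.3 CPM in proximal and 15.1 CPM in distal sums, and was higher in the proximal cells of 11 of 14 experiments. Without experiments 8 to 10 the Hmga1 difference was 1.34 (edgeR adjusted p = 0.987), with proximal cells higher in 9 of 11 experiments. The H3K27me3 medians were then 79.6 CPM in proximal and 23.9 CPM in distal sums (proximal higher in 5 of 6). The H3K4me3 medians went the other way, at 51.4 and 115 CPM, although proximal was higher in 4 of 5. Some sums held few counts, such as 9 proximal and 4 distal in H3K27me3 experiment 5 and 2 and 0 in experiment 8. The sign of the Hmga1 difference did not hold across methods, at −0.28 without the experiment as a block and −0.0043 in limma on the mean log2(CPM + 1) of the cells.

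Hmgb2 had opposite signs under the antibodies, which its pooled difference of 0.26 does not show. In the 6 H3K27me3 experiments other than 8 to 10 its median was 269 CPM in proximal and 68.5 CPM in distal sums, with proximal higher in 6 of 6. In the 5 H3K4me3 experiments its median was 119 CPM in proximal and 256 CPM in distal sums, with distal higher in 5 of 5. In experiments 8 to 10 Hmgb2 was at or near 0 in both positions. The log2 difference was 1.63 in the H3K27me3 table, experiments 8 to 10 included (edgeR adjusted p = 1.00), and −1.35 in the H3K4me3 table (edgeR adjusted p = 0.941), and the difference between the tables was 3.05 ± 1.19, which failed the correction (edgeR unadjusted p = 0.0182, adjusted p = 0.942). The differences of Hmgn2 (1.09), Hmgn3 (0.11), Hmgn1 (−0.18) and Hmgb1 (−0.54) were not called either. With SEs of 0.55 to 1.04 over the 6 genes, the absence of calls does not show that the positions were alike.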

How the data were processed

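The 9 genes, the related gene lists and the comparisons were chosen with earlier results of these data known. Per the labels and the study's methods, the authors trimmed bulk reads with Trim Galore 0.6.4, aligned them to mm9 with STAR 2.5.4b and counted them per gene with featureCounts. Per the file headers, featureCounts 2.0.0 made 50 files and 2.0.1 the 4 KO files. The deposited bulk values are raw counts per gene, and the single-cell values are raw counts per gene and cell, made by the authors with zUMIs over exons and introns without molecular identifiers. Program names and versions come from the submitters' processing notes and the methods.

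Rn45s was removed from all tables, and CPM uses the remaining counts. RPKM divides CPM by the summed exon length in kilobases. Tests used edgeR 4.0.16 (quasi-likelihood, TMM, filterByExpr) in R 4.3.3, with an SE of the log2 difference divided by the root of F. A call is a Benjamini-Hochberg adjusted p below 0.05 over all genes tested. Single cells were summed per experiment and position, with the experiment as a block and at least 3 cells in each sum. Positions came from the study's list of cells. Doublets were not called, since the study picked cells by hand. Alternatives were DESeq2 1.42.0, limma 3.58.1 (single cells), size factors of DESeq2, no filter, Rn45s kept, an offset on GC content, the replicate number as a block, other reference libraries and leaving out each library. Same-numbered Tn5 libraries deviated together (correlations of 0.636 to 0.744 between the 3 amounts). The main Tn5 fit did not pair them, and the pairing entered only through the replicate block. The edgeR tests of the bulk libraries and of the summed single cells were also run on simulated counts with known answers. They recovered changes far less often with the RNA amounts, the Tn5 amounts and the summed single cells than with the other comparisons, so counts of 0 there say little.

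The named genes were the 9 HMG genes, the 5 genes most like Hmgn5 and at most 3 genes of each related list in a comparison. Hprt, Aebp2, Hmga1b, Rn45s and the nuclear RNAs were also given, and Mir703 was named after its value was seen. Exon positions for base composition, overlaps and copies were those deposited with the gene counts, read on NCBIM37, the assembly called mm9. GENCODE vM1 on the same assembly gave the coding sequences. Copies were found with blast 2.17.0. Protein sequences were not used here.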

Additional observations from a re-analysis of the deposited data

Results flagged for a closer look

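In 7 of 18 groups of single-cell experiments that could be examined, the level of an HMG gene in the summed cells of a single experiment lay far from the others. About 1 in 20 such groups stands out by chance. For a gene near 0 in most experiments a few counts are enough to stand out, so 7 of 18 is not read as an excess. Hmgb1 was at 5479 CPM in H3K4me3 experiment 1, which has 4 cells, and at 135 CPM in the next experiment. Hmgn2 (183 CPM) and Hmgb3 (82.9 CPM) were both highest in H3K27me3 experiment 3, which has 14 cells. Hmgn2 had counts in 11 of these cells and Hmgb3 in 2. Hmga2 was at 21.6 CPM in H3K27me3 experiment 6, and Hmgn3 at 29.8 CPM in H3K4me3 experiment 6. Hmgn5 was at 2.75 CPM in H3K27me3 experiment 5, from 1 count in each position. It was at 1.46 CPM in H3K4me3 experiment 6, from 3 counts in proximal cells and 0 in distal cells. In the bulk libraries, Hmga2 differed between the Aebp2 KO clones by 0.94 on the log2 scale (KO1 higher, edgeR adjusted p = 0.0139).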

How the results depend on the processing

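Of the values for single HMG genes under the alternatives, 1305 kept direction and call, 72 lost a call and 28 gained 1. A further 83 changed sign without being called under either setting, among them Hmga1 in proximal against distal cells (−0.28 without the block), and 7 changed sign in a value that was called under the main or the alternative setting. These were Hmgb3 (−0.38) and Hmgn1 (−0.056) for temperature at 5 min alone, Hmgn5 in vitro against ligation with the GC offset (1.25) and with the 37 °C 5 min libraries (1.18), Hmgb2 in SET-seq with the GC offset (−0.68), and Hmgn5 (−0.13) and Hmga2 (−0.086) in KO against in vitro libraries. The cause was not tested.

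For temperature, whose values chose Hmgn5, the number of HMG genes past the threshold is a description, and it was 3 with the GC offset and 3 at 5 min alone. For time it was 2 at 16 °C alone and 0 at 37 °C alone. For in vitro against ligation it was 7 with the GC offset, for KO 3 against in vitro libraries and 3 in KO2 alone, and for KO1 against KO2 it was 0 in DESeq2 and 2 with the GC offset. For 3 ng of RNA it was 1 in DESeq2, and for 100 against 10000 cells 1 with the GC offset. Leaving out 1 library gave 5 to 7 for temperature, 0 to 1 for time, 0 to 0 for Tn5, 2 to 5 for in vitro against ligation, 4 to 4 for SET-seq, 3 to 6 for KO, 0 to 2 for KO1 against KO2, 0 to 5 for 3 ng, 0 to 5 for 30 pg, 1 to 2 for cell number, 0 to 0 for antibody and 0 to 0 for proximal against distal cells. Where this left a condition with 1 library, it was assumed to vary like the others.

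With the replicate number as a block, 0 HMG genes were called at 30 pg and 5 for KO, where Hmgb3 lost its call (1.13, edgeR adjusted p = 0.0589). Of Tn5 amounts, 0 were called with the pairing, with 1587 genes at an unadjusted p below 0.05. The block changed no other count of HMG genes called. For temperature, same-numbered libraries had correlations from −0.063 to 0.29, with 4 of 28 pairs of conditions over 0.1. These ran from −0.004 to 0.117 for the RNA amounts and from −0.073 to 0.023 for KO. In the library-type fit, which includes the Tn5 libraries, they ran from −0.227 to 0.738.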
